A study of Mus musculus with 6 samples.

Results

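The genes described here are 10 components of purinergic signalling and intercellular coupling, measured in cultures of enteric glial cells (EGCs), which accompany the neurons of the gut. They were the rows of the count data whose gene symbol was that of an ATP-gated channel (P2rx4, P2rx7), a nucleotide receptor coupled to G proteins (P2ry1, P2ry2, P2ry6), a nucleotide-degrading enzyme of the cell surface (Entpd1, Entpd2, Nt5e), an adenosine receptor (Adora2b) or connexin 43 (Gja1). All 10 were found once each among 46603 gene identifiers, and all 10 passed the filter on low counts. The cells had been grown from neurospheres, floating clusters of neural progenitors made from total intestine of E14.5 (embryonic day) embryos of the C57BL/6J mouse strain. Both groups carried the same wild-type background: 3 control samples received no stimulus (labelled NIL) and 3 samples received lipopolysaccharide (LPS, a component of the bacterial outer membrane) at 100 ng/ml for 12 h. The labels did not say whether replicates came from separate embryos or cultures, so the p-values measure only the spread between these samples, which may be technical.

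EGCs sense ATP and related nucleotides that leave neurons, muscle and damaged cells, and P2Y receptors on these glia are known to answer with calcium waves that pass between cells through connexin 43 channels. At the cell surface, ectonucleoside triphosphate diphosphohydrolases split ATP and ADP, and 5'-nucleotidase turns AMP into adenosine, which then acts on its own family of receptors. Macrophages (Mφs) also express several of these genes, among them P2rx4, P2rx7, P2ry6 and Entpd1.

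First, the identity and depth of the cultures were examined. Totals ran from 18775316 to 23664312 counts per library, and a level of 3 counts, taken as the detection floor, corresponded to 0.124 to 0.167 CPM (counts over the composition-corrected library size in units of 1e6). All 10 genes lay above this floor in every library. Of 8 glial markers, 7 passed the filter, with Sox10 at 73.8 to 101 CPM, Erbb3 at 56.7 to 84.1 CPM and Gfap at 2.23 to 7.22 CPM over the 6 libraries. S100b fell 3.75-fold in LPS, from 22.2 ± 2.20 to 5.92 ± 3.08 CPM (SD, n = 3; edgeR adjusted p = 0.0238), and Fabp7 rose 2.45-fold, from 2.55 ± 0.256 to 6.27 ± 1.052 CPM (adjusted p = 0.0122). The cultures were not glia alone. The summed level of 13 Mφ markers was 4444, 5815 and 13820 CPM in control replicates 1, 2 and 3 and 4181, 5428 and 21140 CPM in the LPS replicates, so that the library numbered 3 was the highest of both groups, and the same held for each of the 13 markers by itself. The 7 mesenchymal markers summed to 10930 to 12680 CPM and the 4 epithelial markers to at most 0.885 CPM. All 6 smooth muscle markers fell in LPS, their sum being 2480, 2492 and 2266 CPM in the control replicates and 900.3, 882.1 and 634.1 CPM in the LPS replicates, and 1 of 3 interstitial cell markers and 1 of 4 mesothelial markers fell as well (2 of 3 and 4 of 4 with the replicate number as a block). The part of these cell types in the levels given below was not tested. In bulk RNA, fewer cells of a type and less RNA per cell cannot be told apart.

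Of the 10 genes, Adora2b and P2ry2 rose in LPS, Entpd1 fell, and 7 did not pass the test (edgeR quasi-likelihood F-test, Benjamini-Hochberg adjustment over 15226 genes, called at an adjusted p under 0.05). The 2 genes called higher compare with 9.09% of all genes tested, and the 1 called lower with 6.71%. With the replicate number as a block, which sets each LPS sample against the control sample of the same number, 4 genes were called higher, the added ones being P2rx4 and Gja1, beside 15.4% of all genes, and Entpd1 was again the 1 called lower, beside 14.9%. The median log2 fold change of the 10 genes was 0.42, against -0.02 over all genes tested. All 3 LPS libraries lay above all 3 control libraries for 3 of the 10 genes (Adora2b, P2ry2 and P2rx4), an arrangement seen in 19.3% of all genes, and below them for 1 of the 10 (Entpd1), seen in 19.4% of all genes.

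**Figure D1:**
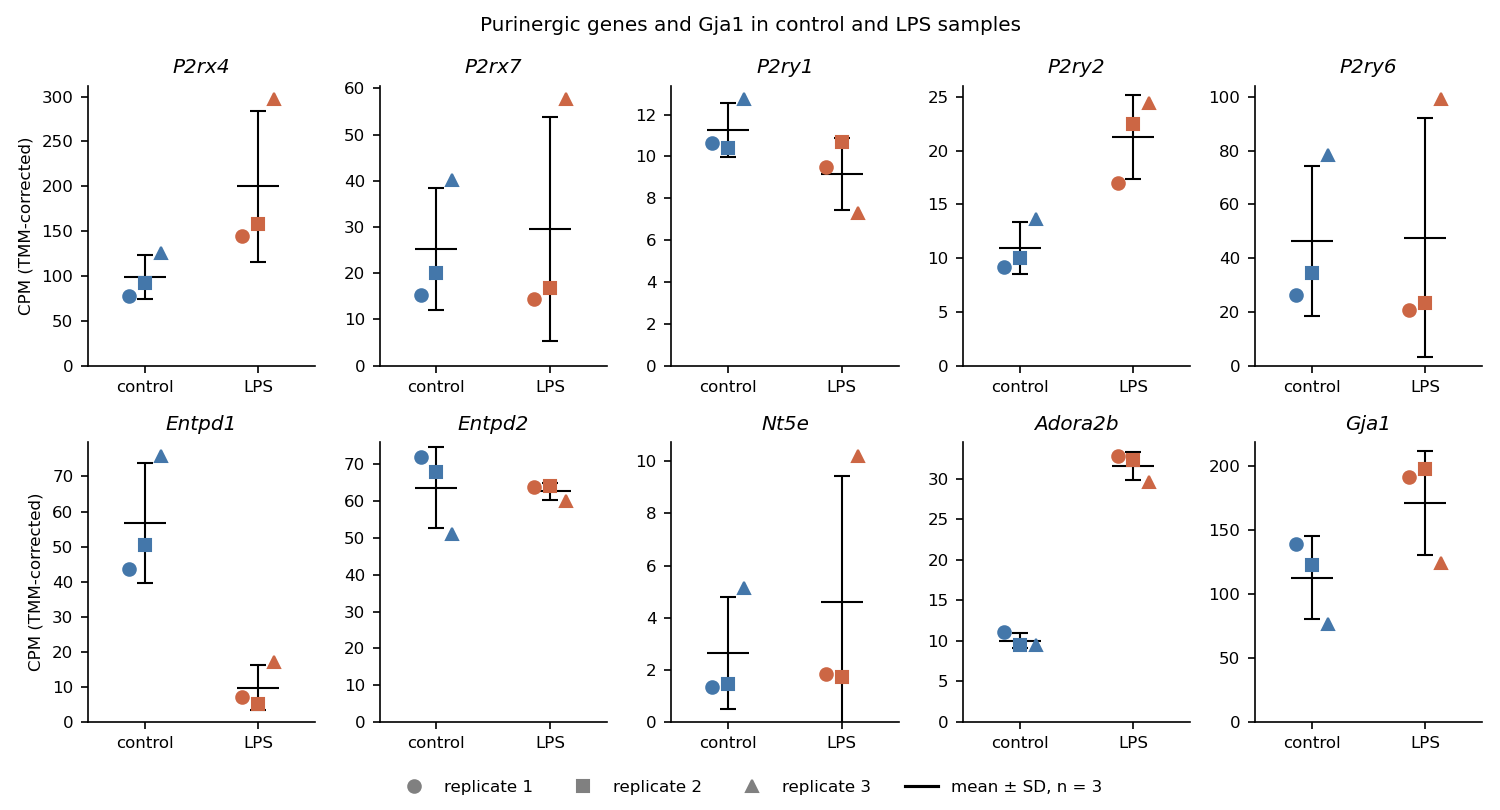
Level of each of the 10 genes in CPM on composition-corrected library sizes, by group, with 1 point per library, marker shapes for replicate numbers and black bars for mean ± SD (n = 3); every axis starts at 0, below which the lower end of the Nt5e LPS bar is not drawn. Adora2b shows 2 tight groups apart from each other, Entpd1 is low in all LPS libraries, and replicate 3 stands above replicates 1 and 2 in both groups for P2rx7, P2ry6 and Nt5e.

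**Figure D2:**
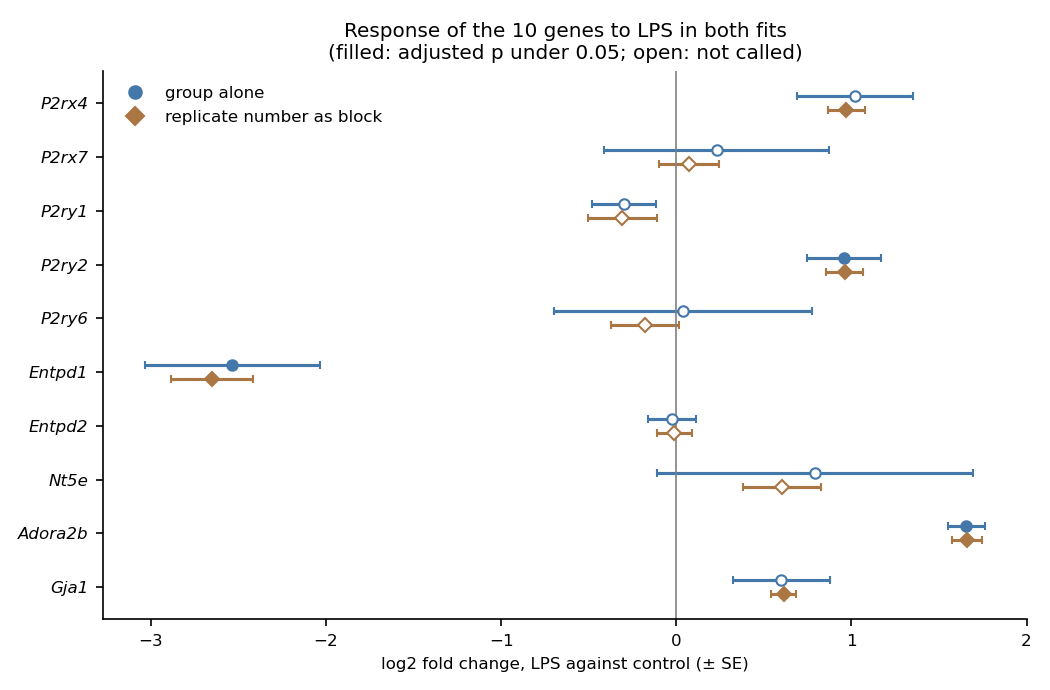
Log2 fold change of each gene in LPS against control, with bars of ± 1 SE, in the fit with the group alone (circles) and in the fit with the replicate number as a block (diamonds); filled symbols have an adjusted p under 0.05. P2rx4 and Gja1 are open in the first fit and filled in the second, with similar fold changes in both.

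Next, the stretches of DNA before the start sites of the genes whose level differed in one fit or the other are shown, because these genes share a treatment but not a direction. The sequences are RefSeq promoter windows of GRCm38.p6, 250 bases before a start site, read 5′ to 3′ on the strand of the gene. Only windows that touch no annotated exon are printed. Those of P2ry2 and Entpd1 fall inside the annotated gene, in an intron of a longer transcript, and those of Adora2b, P2rx4 and Gja1 lie before it. Adora2b starts on chromosome 11 (window chr11:62248734-62248983, plus strand), P2ry2 on chromosome 7 (chr7:101012054-101012303, minus strand), Entpd1 at its downstream start on chromosome 19 (chr19:40659520-40659769, plus strand), P2rx4 on chromosome 5 (chr5:122707294-122707543, plus strand) and Gja1 on chromosome 10 (chr10:56377050-56377299, plus strand). The capitals in the Gja1 window mark a match to the AP-1 motif TGANTCA, which lies 19 bases before the start site.
Adora2b: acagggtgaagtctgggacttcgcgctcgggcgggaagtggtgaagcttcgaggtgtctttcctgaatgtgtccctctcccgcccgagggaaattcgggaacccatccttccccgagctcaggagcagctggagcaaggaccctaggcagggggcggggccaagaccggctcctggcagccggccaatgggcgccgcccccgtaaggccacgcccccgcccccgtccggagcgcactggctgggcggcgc
P2ry2: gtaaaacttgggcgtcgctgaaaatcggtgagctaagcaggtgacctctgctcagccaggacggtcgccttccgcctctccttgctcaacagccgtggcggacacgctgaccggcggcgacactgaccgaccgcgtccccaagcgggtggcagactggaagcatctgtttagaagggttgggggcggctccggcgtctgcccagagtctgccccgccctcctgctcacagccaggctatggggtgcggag
Entpd1: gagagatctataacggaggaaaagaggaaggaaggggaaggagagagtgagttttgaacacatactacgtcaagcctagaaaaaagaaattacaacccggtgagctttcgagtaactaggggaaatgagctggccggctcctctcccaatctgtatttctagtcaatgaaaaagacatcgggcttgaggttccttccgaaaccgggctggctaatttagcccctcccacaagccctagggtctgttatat
P2rx4: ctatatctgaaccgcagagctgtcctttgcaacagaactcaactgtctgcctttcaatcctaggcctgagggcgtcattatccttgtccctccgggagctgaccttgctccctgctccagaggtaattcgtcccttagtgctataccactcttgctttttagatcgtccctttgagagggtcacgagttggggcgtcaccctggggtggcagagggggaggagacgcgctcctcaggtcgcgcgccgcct
Gja1: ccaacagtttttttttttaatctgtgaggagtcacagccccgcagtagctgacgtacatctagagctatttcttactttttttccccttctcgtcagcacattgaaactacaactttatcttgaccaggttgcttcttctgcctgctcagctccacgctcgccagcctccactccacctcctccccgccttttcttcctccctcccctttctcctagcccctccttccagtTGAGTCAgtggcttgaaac

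RefSeq windows were found for 9 of the 10 genes, with 12 start sites in all, and P2ry6 was not matched. These 12 windows were searched on both strands for 4 motifs: the NF-kB consensus, AP-1 (TGANTCA), the interferon-stimulated response element (GAAANNGAAA) and the GAS element of STAT factors (TTCNNNGAA). No window held an NF-kB, interferon-stimulated or GAS match, which says only that these letters were not in these bases. The AP-1 motif was matched before 3 start sites, those of Gja1, Entpd2 (99 bases before) and the upstream start of P2rx7 (249 bases before). Among 32817 windows of the same length over all genes, 7.25% held an NF-kB match, 6.75% an AP-1 match, 2.97% an interferon-stimulated match and 7.01% a GAS match. The matches are descriptions of the letters and not of binding.

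The smallest adjusted p among the 10 genes was that of Adora2b, which encodes the low-affinity adenosine A2B receptor that couples to cAMP production. It was at 11.1, 9.47 and 9.46 CPM in control replicates 1, 2 and 3 and at 32.8, 32.3 and 29.6 CPM in the LPS replicates. The groups were far apart, with no control library above 11.1 CPM and no LPS library below 29.6 CPM. The mean went from 10.0 ± 0.943 to 31.6 ± 1.72 CPM (SD, n = 3), 3.15-fold higher in LPS (log2 fold change 1.66 ± 0.11 SE, adjusted p = 0.000803). Adora2b was called in 16 of 16 alternative analyses, with log2 fold changes between 1.50 and 1.75. The library numbered 3 was at 0.92 times the mean of replicates 1 and 2 in control and at 0.91 times in LPS. The gene lies at chr11:62248984-62266453 (GRCm38, plus strand), and none of its exonic 50-base words occur in another gene.

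P2ry2 encodes a receptor that answers ATP and UTP alike and raises intracellular calcium. Its level was 9.20, 10.0 and 13.7 CPM in the control replicates and 17.0, 22.5 and 24.4 CPM in the LPS replicates. The lowest LPS library was thus above the highest control library. The mean went from 11.0 ± 2.39 to 21.3 ± 3.89 CPM (SD, n = 3), 1.94-fold higher in LPS (log2 fold change 0.96 ± 0.21 SE, adjusted p = 0.0351; 0.00659 with the replicate block). The call was kept without control replicate 3 (log2 fold change 1.17, adjusted p = 0.0238) and without both libraries numbered 3 (1.06, adjusted p = 0.00224). It was lost without control replicate 1 (log2 fold change 0.85, adjusted p = 0.119), control replicate 2 (0.90, adjusted p = 0.141), LPS replicate 1 (1.10, adjusted p = 0.0531), LPS replicate 2 (0.92, adjusted p = 0.122) or LPS replicate 3 (0.84, adjusted p = 0.0553), in the same edgeR test.

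P2ry6, the UDP receptor, is the neighbour of P2ry2 on the minus strand of chromosome 7, with 21918 bp and no annotated gene between them. It was at 26.4, 34.7 and 78.3 CPM in the control replicates and 20.6, 23.4 and 99.1 CPM in the LPS replicates. Replicate 3 was the highest in both groups by a wide margin, and the groups overlapped. In the pairs numbered 1 and 2 the LPS sample was lower (log2 ratios of -0.36 and -0.57), and in pair 3 it was higher (0.34). The fitted log2 fold change was 0.04 ± 0.74 SE (adjusted p = 0.978), so no direction could be read with all libraries. Without both libraries numbered 3, an analysis chosen after seeing the data, P2ry6 was lower in LPS by a log2 fold change of -0.45 (edgeR, adjusted p = 0.0439).

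P2ry1, the ADP receptor, had 10.6, 10.4 and 12.7 CPM in control and 9.49, 10.7 and 7.28 CPM in LPS. The groups overlapped and the spread between libraries was small. The log2 ratios within pairs were -0.16, 0.04 and -0.81, so pair 2 did not share the direction of pairs 1 and 3. The fitted log2 fold change was -0.30 ± 0.18 SE and did not pass the test (adjusted p = 0.317). Of the exonic 50-base words of P2ry1, 22% are shared with Gm37035, a gene on the opposite strand, so part of its count is uncertain where strand was not used in counting.

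Within the P2Y receptors, the balance between P2ry2 and P2ry6 was also described as a ratio of counts within each library, which needs no scaling between libraries. The P2ry2 to P2ry6 ratio was 0.349, 0.289 and 0.175 in the control replicates and 0.823, 0.964 and 0.247 in the LPS replicates. It was higher in LPS in each of the 3 pairs, but LPS replicate 3 was below control replicates 1 and 2. The pair of genes was chosen by role after the data had been seen, and the ratio was not tested.

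Among the ATP-gated channels, P2rx4 encodes a channel of high ATP affinity that is abundant on lysosomes and rises in activated microglia, and P2rx7 encodes the channel that needs high ATP and triggers the inflammasome in Mφs. The 2 genes lie in the same orientation on chromosome 5, 16111 bp apart with 1 gene between them. P2rx4 was at 77.9, 92.0 and 126 CPM in the control replicates and 145, 158 and 297 CPM in the LPS replicates. All LPS libraries were above all control libraries, and replicate 3 was the highest of each group. The fold change was 2.03 (98.7 ± 24.7 against 200.1 ± 84.3 CPM, SD, n = 3; log2 fold change 1.02 ± 0.33 SE), which missed the threshold with the group alone (adjusted p = 0.0932) and passed it with the replicate block (log2 fold change 0.97, adjusted p = 0.00626). The LPS sample was higher by 1.86-, 1.72- and 2.36-fold in pairs 1, 2 and 3.

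P2rx7 was at 15.4, 20.1 and 40.2 CPM in control and at 14.48, 16.8 and 57.6 CPM in LPS. Whether its response differed from that of P2rx4 was not tested. The groups overlapped, and replicate 3 was again the highest of each. The log2 ratios within pairs were -0.09, -0.26 and 0.52, and neither fit passed the threshold (log2 fold change 0.23 ± 0.64 SE, adjusted p = 0.843; 0.07 with the replicate block, adjusted p = 0.768). Counted within each library, there were 5.07, 4.59 and 3.14 P2rx4 counts per P2rx7 count in the control replicates and 10.0, 9.44 and 5.15 in the LPS replicates. The ratio was higher in LPS in every pair and the groups did not overlap; it was chosen after the data had been seen and was not tested.

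Of the surface enzymes among the 10 genes, which remove extracellular nucleotides, only Entpd1 was called, and differences between these genes were not tested. Entpd1 encodes CD39, which splits ATP and ADP to AMP and is the main ectonucleotidase of leukocytes and endothelium. Its level was 43.5, 50.4 and 76.0 CPM in the control replicates and 7.12, 5.13 and 17.1 CPM in the LPS replicates. Every LPS library lay below every control library, and replicate 3 was the highest within each group. Entpd1 fell 5.79-fold, from 56.6 ± 17.1 to 9.77 ± 6.40 CPM (SD, n = 3; log2 fold change -2.53 ± 0.50 SE, adjusted p = 0.0253; 0.00399 with the replicate block). The fold within pairs was -2.61, -3.30 and -2.15 on the log2 scale. The edgeR call was lost without control replicate 1 (log2 fold change -2.69, adjusted p = 0.0702), control replicate 2 (-2.61, adjusted p = 0.0913), control replicate 3 (-2.25, adjusted p = 0.0514), LPS replicate 1 (-2.35, adjusted p = 0.0921) or LPS replicate 2 (-2.23, adjusted p = 0.0776), and it was kept without LPS replicate 3 (-3.21, adjusted p = 0.00354). The gene lies at chr19:40612366-40741602 (GRCm38, plus strand), with no exonic 50-base word shared with another gene.

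Entpd2 encodes an enzyme that prefers ATP over ADP and is known as an ectonucleotidase of enteric glia. It was at 72.1, 68.0 and 51.1 CPM in control and 63.9, 64.0 and 60.0 CPM in LPS. All LPS libraries lay within the range of the control libraries. The log2 fold change was -0.02 ± 0.14 SE (adjusted p = 0.925; log2 fold change of -0.01 with the replicate block). Of its exonic 50-base words 25.9% are shared with Npdc1, an overlapping gene on the same strand, so its level is uncertain by the reads that counting could not assign. The Entpd1 to Entpd2 ratio of counts within a library was 0.604, 0.741 and 1.49 in the control replicates and 0.112, 0.0801 and 0.284 in the LPS replicates. The groups did not overlap in this ratio, which was also chosen after the data had been seen and was not tested.

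Nt5e encodes CD73, the 5'-nucleotidase that makes adenosine from AMP. It was scarce, at 1.36, 1.46 and 5.12 CPM in the control replicates and 1.83, 1.73 and 10.2 CPM in the LPS replicates. These levels rested on 31 to 195 counts per library, and most of the difference between libraries was between replicate 3 and the rest. The LPS sample was the higher of each pair (log2 ratios 0.43, 0.24 and 0.99), but neither fit called the gene (log2 fold change 0.79 ± 0.90 SE, adjusted p = 0.599; 0.61, adjusted p = 0.107 with the replicate block).

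Gja1 encodes connexin 43, the gap junction protein and hemichannel through which enteric glia are coupled. It was at 139, 123 and 76.9 CPM in the control replicates and 191, 198 and 124 CPM in the LPS replicates. The LPS sample was higher in every pair, by 1.38-, 1.61- and 1.62-fold, while the groups overlapped because LPS replicate 3 was below control replicate 1. Replicate 3 was the lowest of both groups. The log2 fold change was 0.60 ± 0.28 SE with the group alone (adjusted p = 0.198) and 0.61 with the replicate block (adjusted p = 0.00767). The means were 112.9 ± 32.2 and 171.1 ± 40.7 CPM (SD, n = 3).

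Levels of different genes were then compared per kilobase of exon, as CPM per kilobase. The length was that of all annotated exons of a gene merged, which can exceed that of the transcripts present. It was 2128 bp for Entpd2, 7025 bp for P2rx4 and 10257 bp for Gja1. The order depends on these lengths. In CPM alone the control means were 112.9 for Gja1, 98.7 for P2rx4 and 63.7 for Entpd2. In control, Entpd2 was the highest of the 10 at 29.9 ± 5.23, above the level of 90% of 15182 genes with a length, followed by P2ry6 (16.1 ± 9.67), P2rx4 (14.1 ± 3.52), Gja1 (11.0 ± 3.14) and Entpd1 (10.2 ± 3.06). The ranges of these last 4 overlapped one another, and that of P2ry6 also overlapped that of Entpd2, so neighbours in this order did not differ beyond their spread. Adora2b followed at 5.43 ± 0.511, P2rx7 at 4.22 ± 2.21, P2ry2 at 2.79 ± 0.609, P2ry1 at 2.62 ± 0.299 and Nt5e at 0.308 ± 0.250 (SD, n = 3). Adora2b overlapped P2rx7, P2rx7 overlapped P2ry2 and P2ry1, and Nt5e was below the other genes in every control library. In LPS, Entpd2 was at 29.4 ± 1.06 and P2rx4 at 28.5 ± 12.0, with overlapping ranges. Adora2b at 17.1 ± 0.930, Gja1 at 16.7 ± 3.97 and P2ry6 at 16.5 ± 15.4 overlapped as well. P2ry2 was at 5.43 ± 0.991, P2rx7 at 4.96 ± 4.07 and P2ry1 at 2.13 ± 0.405. Entpd1, at 1.75 ± 1.15, stood above Nt5e alone (0.533 ± 0.566) by its mean, and its place among all genes went from above 69.4% of them in control to above 28.6% in LPS, whereas that of Adora2b went from 52.8% to 79.4%. Several of these means rested on the libraries numbered 3. Without control replicate 3 the control level of P2ry6 was 10.6, below those of Gja1 (12.8) and P2rx4 (12.1), and that of Nt5e was 0.164. Without LPS replicate 3 the LPS level was 7.61 for P2ry6, 2.62 for P2rx7, 1.10 for Entpd1 and 0.207 for Nt5e.

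The libraries numbered 3 stood apart in both groups, and the genes followed this in different ways. P2rx4, P2rx7, P2ry2, P2ry6, Entpd1 and Nt5e, 6 of the 10, were highest in replicate 3 of both groups, a pattern found in 29.4% of all genes. Gja1, Entpd2 and Adora2b were lowest in replicate 3 of both groups, as were 29.0% of all genes. For Adora2b in control this rested on 9.46 against 9.47 CPM. Each of the 7 neuron markers and each of the 3 interstitial cell markers tested had the same pattern. So did 4 of 6 smooth muscle, 3 of 7 glial and 1 of 7 mesenchymal markers. Replicate 3 exceeded the mean of replicates 1 and 2 in control and in LPS by 3.64 and 5.74 times for Nt5e, 2.57 and 4.51 times for P2ry6, 2.27 and 3.69 times for P2rx7, 1.62 and 2.79 times for Entpd1, 1.48 and 1.96 times for P2rx4 and 1.43 and 1.24 times for P2ry2. The summed Mφ markers gave 2.69 and 4.40 times. For Gja1 the same quotients were 0.588 and 0.639. The part of Mφ content in the level or response of these genes was not tested. The Mφ markers did not move together with LPS. In replicates 1 and 2, Adgre1 was at 159 and 229 CPM in control and 952 and 1261 CPM in LPS, Mrc1 at 197 and 331 CPM in control and 9.29 and 10.4 CPM in LPS, and Lyz2, the main part of the sum, at 2888 and 3490 CPM in control and 2385 and 3069 CPM in LPS. Without both libraries numbered 3, 4 genes were called higher (Adora2b, P2ry2, P2rx4 and Gja1) and 2 lower (Entpd1 and P2ry6), beside 22.6% and 20.4% of all genes. That fit had 2 libraries per group and was chosen after seeing the data.

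**Figure D3:**
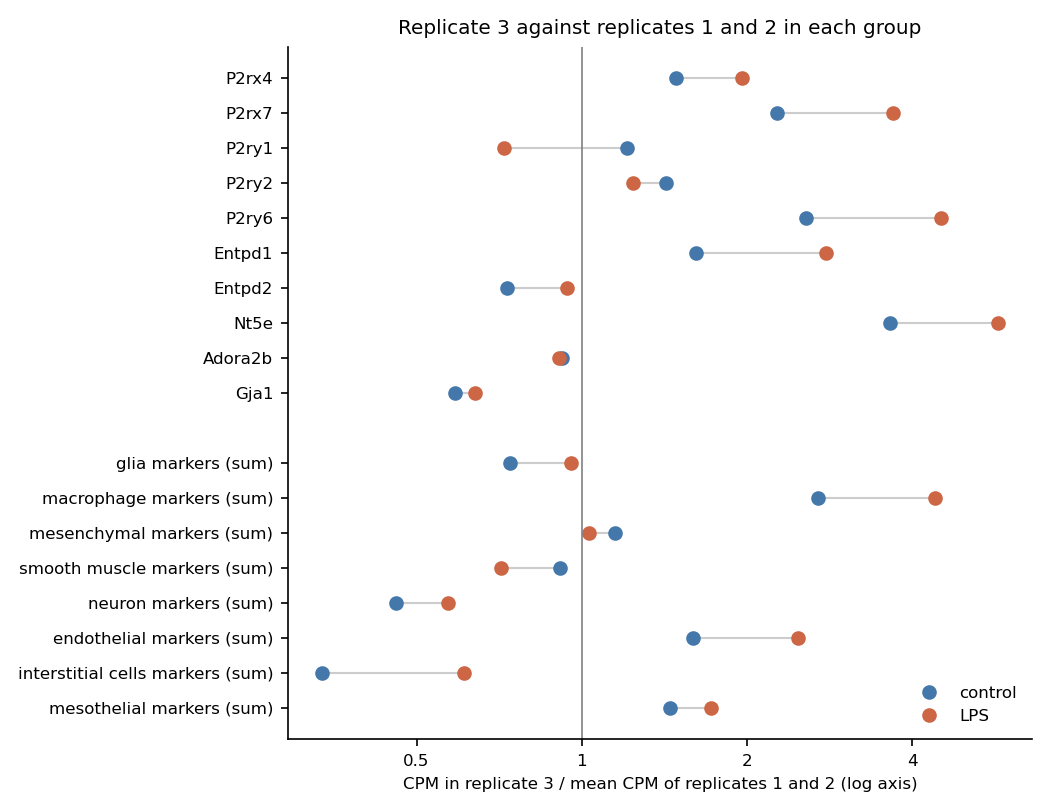
Level in replicate 3 divided by the mean of replicates 1 and 2, on a log axis, in control and in LPS, for the 10 genes (top) and for the summed markers of 8 cell types (bottom). Nt5e, P2ry6 and P2rx7 lie to the right, near the summed Mφ markers at 2.69 and 4.40, and Adora2b lies near 1. Gja1 lies to the left, as do the neuron and the interstitial cell markers.

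**Figure D4:**
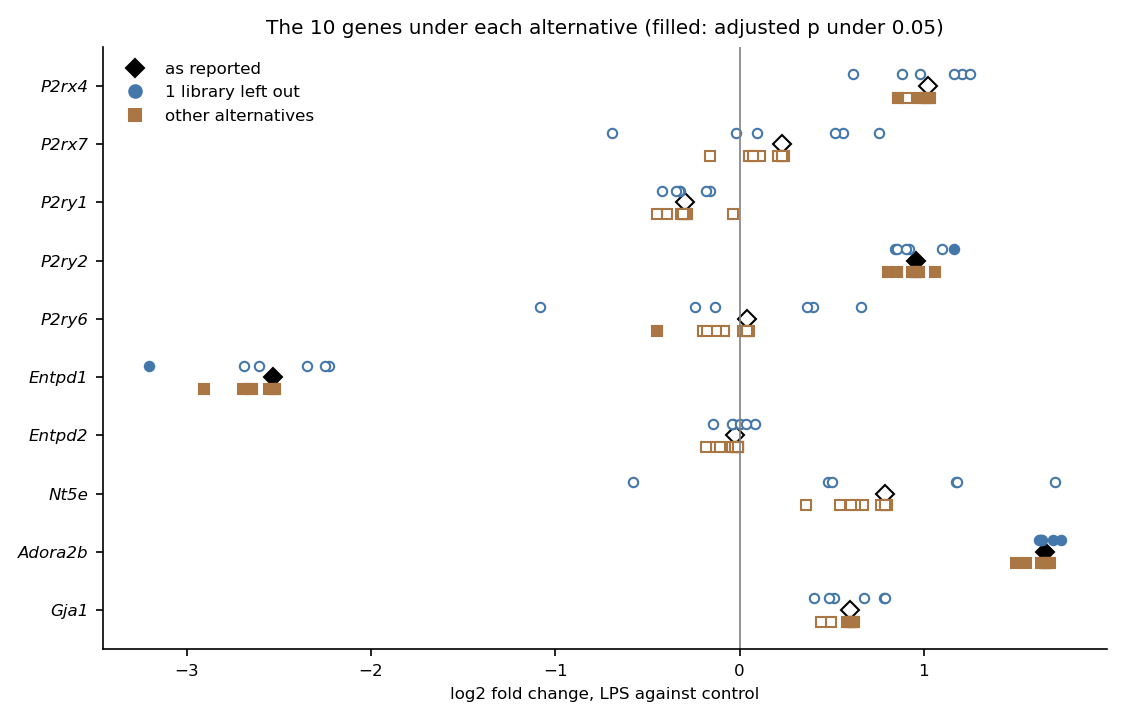
Log2 fold change of each gene as reported (diamonds), with 1 library left out (circles) and under the other alternatives (squares); filled symbols have an adjusted p under 0.05. Adora2b is filled throughout between 1.50 and 1.75, whereas P2ry6, P2rx7, Entpd2 and Nt5e have values on both sides of 0.

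Finally, the other genes of nucleotide release, sensing, breakdown and uptake and the other connexins were examined, a list of 56 genes of which 35 passed the filter. Of the 35, 5 rose in LPS, 1 fell and 29 did not pass the test, beside 9.09% of all genes called higher and 6.71% lower, and their median log2 fold change was 0.00 (-0.02 over all genes). The replicate block called 7 of them higher and 4 lower, beside 15.4% and 14.9% of all genes. Entpd4, which shares 100% of its exonic 50-base words with Entpd4b and is uncertain, did not pass. The other genes that did not pass included P2ry4, P2ry10, Adora3, Entpd8, Slc28a1, Slc28a3, Panx3, Gja3, Gja4, Gja5, Gja6, Gja10, Gjb1, Gjb2, Gjb6, Gjd3, Gjd4 and Gje1.

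In the adenosine receptors, Adora2a, whose product couples to cAMP as that of Adora2b does but with higher affinity, rose beside it. It was at 3.64, 3.32 and 1.45 CPM in the control replicates and 12.5, 17.9 and 15.5 CPM in the LPS replicates. The groups did not overlap (log2 fold change 2.44 ± 0.37 SE, adjusted p = 0.0123), and the call was lost without LPS replicate 2 (2.32, edgeR adjusted p = 0.0565) or control replicate 2 (2.59, adjusted p = 0.0621). There were 3.05, 2.85 and 6.54 Adora2b counts per Adora2a count in control and 2.64, 1.81 and 1.91 in LPS. Adora1, the receptor that lowers cAMP, was at 2.88, 3.10 and 0.661 CPM in control and 8.90, 10.3 and 1.20 CPM in LPS. Its groups overlapped through replicate 3. It was not called with the group as the single term (1.62 ± 0.89 SE, adjusted p = 0.268) but was with the replicate block (1.49, adjusted p = 0.0136) and without both libraries numbered 3 (1.70, adjusted p = 0.000467). Of its exonic 50-base words 17.4% are shared with Mybph on the opposite strand.

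Among nucleotide-breaking ectoenzymes, Acpp encodes a phosphatase that can also make adenosine from AMP. It went from 0.593, 0.797 and 1.12 CPM in the control replicates to 16.1, 16.6 and 8.01 CPM in the LPS replicates. The highest control library was thus well below the lowest LPS library (log2 fold change 4.01 ± 0.40 SE, adjusted p = 0.00331). Acpp was called in 16 of 16 alternatives. Enpp2, which encodes autotaxin, a maker of lysophosphatidic acid in the nucleotide pyrophosphatase family, was at 25.3, 20.6 and 12.0 CPM in control and 164, 164 and 54.3 CPM in LPS, without overlap (2.73 ± 0.51 SE, adjusted p = 0.0224). Its call was lost without LPS replicate 1 (2.50, adjusted p = 0.0712), LPS replicate 2 (2.50, 0.0818), control replicate 1 (2.98, 0.0723) or control replicate 2 (2.78, 0.103). The pyrophosphatases Enpp1 and Enpp3 were called lower with the replicate block and without both libraries numbered 3 (-0.68, adjusted p = 0.00304, and -2.68, adjusted p = 0.000177), but not with the group as the single term. Enpp3 was also called without LPS replicate 3 (-3.31, adjusted p = 0.0187). It was not called without control replicates 1, 2 or 3 (-2.17, -2.15 and -1.33) or LPS replicates 1 or 2 (-1.56 and -1.54). Enpp1 was at 37.5, 45.9 and 72.2 CPM in control and 25.9, 25.3 and 50.7 CPM in LPS (-0.61 ± 0.37 SE, adjusted p = 0.312; -0.63, adjusted p = 0.0132 with the block), and Enpp3 at 6.48, 6.86 and 17.0 CPM in control and 1.09, 0.947 and 5.86 CPM in LPS (-1.94 ± 0.82 SE, adjusted p = 0.168; -2.21, adjusted p = 0.0115 with the block). The groups overlapped for Enpp1 and not for Enpp3.

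For the removal and transport of nucleosides, Pnp, which breaks down inosine and guanosine, was at 51.7, 53.7 and 61.7 CPM in control and 154, 170 and 305 CPM in LPS. The groups did not overlap (log2 fold change 1.91 ± 0.28 SE, adjusted p = 0.0117), and the call was lost without control replicate 1 (1.87, adjusted p = 0.0613) or control replicate 2 (1.89, adjusted p = 0.0700). The identifier counted as Pnp is a gene model that shares 95.4% of its 50-base words with another annotated Pnp gene, so its value is uncertain. The concentrative nucleoside transporter Slc28a2 was at 0.381, 0.266 and 0.703 CPM in control and 3.21, 2.73 and 15.9 CPM in LPS (3.99 ± 0.89 SE, adjusted p = 0.0357). Its groups did not overlap, its call was kept in 9 of 15 alternatives, and it was lost without any 1 of control replicates 1, 2 and 3 and LPS replicates 1 and 2 (adjusted p of 0.128, 0.142, 0.0636, 0.0609 and 0.0601) and with limma-voom (3.57, adjusted p = 0.0827), with 35.4% of its 50-base words shared with Gm14085. Without LPS replicate 3 its log2 fold change was 2.70 (adjusted p = 0.0125).

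Of the other nucleotide receptors, P2ry14, the receptor for UDP-sugars, was at 4.53, 4.38 and 6.32 CPM in control and 7.12, 8.25 and 16.9 CPM in LPS. Its groups did not overlap, and it was not called with the group as the single term (1.08 ± 0.38 SE, adjusted p = 0.109) but was with the replicate block (1.00, adjusted p = 0.0233), by DESeq2 (1.09, adjusted p = 0.0369) and without both libraries numbered 3 (0.81, adjusted p = 0.00962). None of the 5 other ATP-gated channels and none of the 3 release genes that were tested was called in either fit. In 2 of these 5 channels all LPS libraries lay below all control libraries, an arrangement seen in 19.4% of all genes. Among the connexins, Gjc3, a connexin of myelinating and other glia, was at 54.1, 44.2 and 28.4 CPM in control and 19.9, 22.9 and 22.5 CPM in LPS. The groups did not overlap, and Gjc3 fell by 0.96 ± 0.24 SE on the log2 scale (adjusted p = 0.0477), a call lost without any 1 of LPS replicates 1, 2 and 3 and control replicates 1 and 2 (adjusted p of 0.143, 0.140, 0.0701, 0.127 and 0.160) and with limma-voom (-0.91, adjusted p = 0.0761). Gjc1, which encodes connexin 45, was at 25.7, 27.7 and 19.4 CPM in control and 20.7, 21.2 and 15.6 CPM in LPS, overlapping. It was not called with the group as the single term (-0.34 ± 0.19 SE, adjusted p = 0.265) but was lower with the block (-0.34, adjusted p = 0.0296) and without both libraries numbered 3 (-0.33, adjusted p = 0.0175). There were 2.57, 2.77 and 2.71 Gja1 counts per Gjc3 count in the control replicates and 9.61, 8.64 and 5.53 in the LPS replicates, a ratio without overlap that was chosen after the data had been seen and was not tested.

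**Figure D5:**
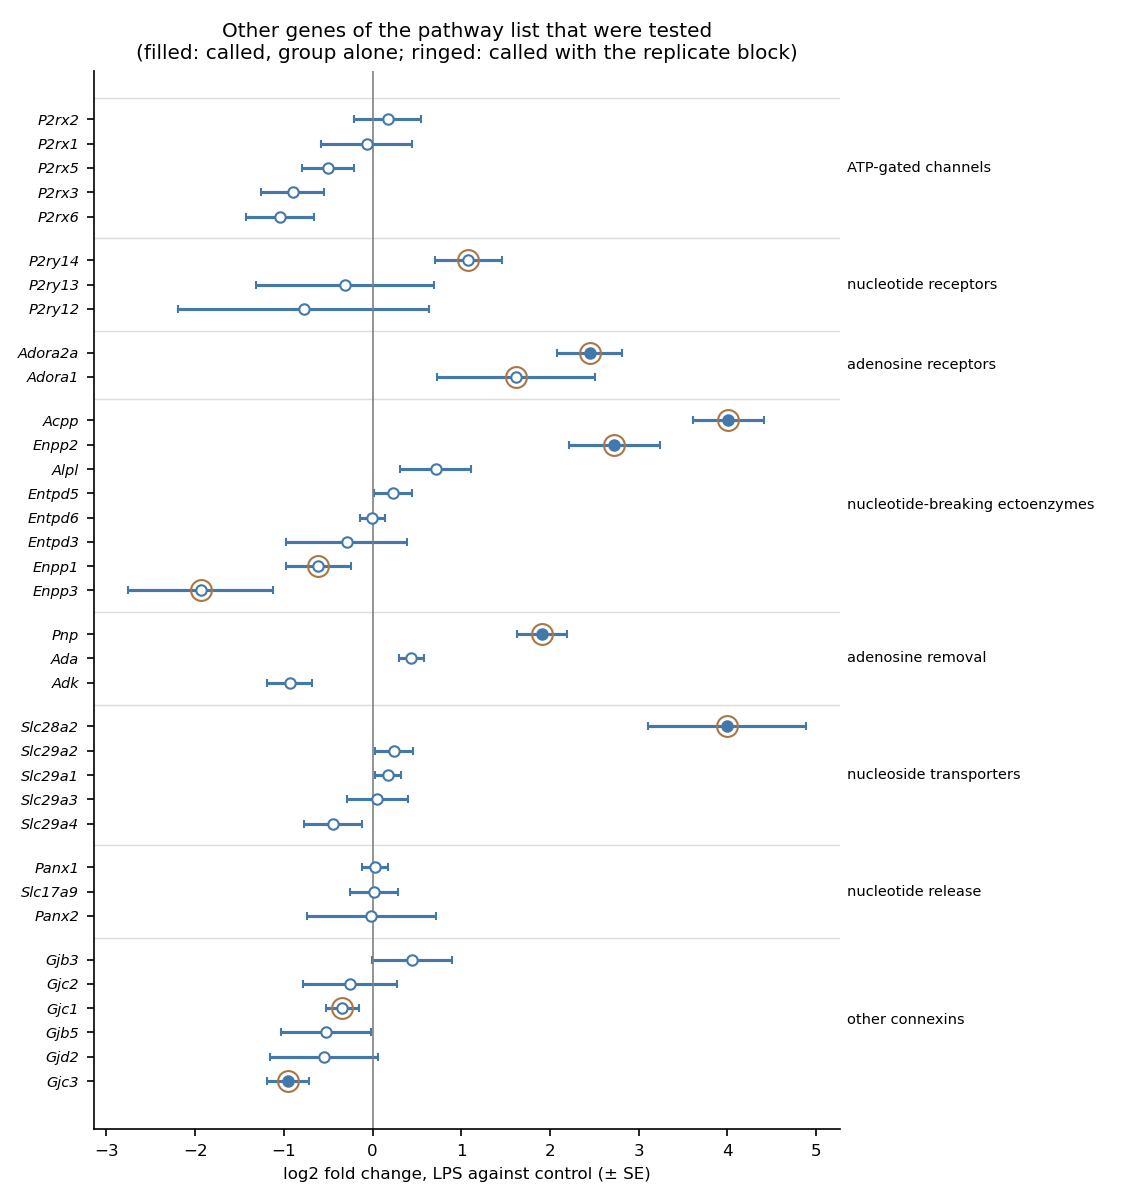
Log2 fold change in LPS against control, with bars of ± 1 SE, of the 35 other genes of the list that passed the filter, grouped by role; filled points were called with the group alone and ringed points with the replicate block. Acpp (4.01), Slc28a2 (3.99), Enpp2 (2.73), Adora2a (2.44) and Pnp (1.91) lie to the right, and Gjc3 (-0.96) is the filled point to the left of 0.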

How the data were processed

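Poly(A) RNA of 6 samples was sequenced from stranded libraries. The authors deposited raw counts per gene: per the submitters' processing notes, cutadapt 1.15, Bowtie2 2.3.3.1, STAR 2.5.2b, SAMtools 1.5 and featureCounts 1.5.3 were used with GRCm38, and the strand setting and the handling of reads with several alignments are not given in the sources used here. Genes were filtered with filterByExpr (minimum count 10, minimum total 15) and 15226 were tested with edgeR 4.0.16 in R 4.3.3: TMM factors, quasi-likelihood F-test, two-sided, group as the single term, Benjamini-Hochberg adjustment. An SE is the absolute log2 fold change over the root of F. The 10 genes, the pathway list, the marker lists and the rule for naming genes (all 10 genes, and each pathway gene called with the group alone or with the block) were chosen with earlier results of these data known. Some genes of these lists entered the counts and are not reported here by name.

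Alternatives were 3 other scalings, 2 other filters, DESeq2 1.42.0, the edgeR exact test, limma-voom (limma 3.58.1), leaving out 1 library at a time, and a replicate block. Leaving out both libraries numbered 3 was an alternative chosen after seeing the data, and the counts of 16 alternatives include it. What a replicate number marks is not in the labels. Across genes, the deviations of same-numbered control and LPS libraries from their group means correlated at r = 0.513, 0.334 and 0.613 for numbers 1, 2 and 3, each above the limit of 0.1 set for treating them as pairs in the block. Control 1 with LPS 2 (0.419) and control 2 with LPS 1 (0.323) also exceeded it, so the correlations set number 3 apart but do not tell numbers 1 and 2 from each other. No libraries were duplicates. Coordinates and exon lengths come from GENCODE M21, which held 46091 of the 46603 identifiers. The test was checked on simulated counts. Floors cover counting error only.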

Additional observations from a re-analysis of the deposited data

How the results depend on the processing

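The direction of Adora2b, P2ry2, P2rx4 and Gja1 (higher) and of Entpd1 and P2ry1 (lower) was the same in all 16 alternatives, and Adora2b was called in all of them. P2ry1 was called in 0 of the 16, and its log2 fold change was -0.04 without both libraries numbered 3 (edgeR, adjusted p = 0.831). P2rx4 was called in 4 of the 16 (DESeq2, adjusted p = 0.0202; edgeR exact test, 0.0273; the replicate block, 0.00626; neither library numbered 3, 0.000554) and Gja1 in 2 (the replicate block and neither library numbered 3). The replicate block gave 4 of the 10 genes called higher and 4 pathway genes called lower, and among the 10 genes it changed no call other than those of P2rx4 and Gja1. Without both libraries numbered 3, 4 of the 10 genes were called higher and 2 lower, and 10 pathway genes higher and 10 lower, where 22.6% and 20.4% of all genes were called. Pathway genes called lower were 2 with upper-quartile factors, library size alone, DESeq2 or the exact test, and 0 with limma-voom. Leaving out 1 library gave 1 to 2 of the 10 genes higher and 0 to 1 lower, and 1 to 6 pathway genes higher and 0 to 3 lower, while the calls over all genes ran from 379 higher and 112 lower (without control replicate 2) to 1964 and 1426 (without LPS replicate 3), against 1384 and 1022 with all libraries. The log2 fold change of P2ry6 was -0.083 with upper-quartile factors, -0.13 with library size alone, -0.20 with limma-voom, -0.18 with the replicate block and -0.45 without both libraries numbered 3, and lay between -1.08 and 0.66 with 1 library left out. P2rx7 was at -0.16 without both libraries numbered 3 and between -0.69 and 0.76 with 1 library left out, Entpd2 between -0.15 and 0.083, and Nt5e between -0.58 and 1.71. The cause of these differences was not tested. Over all genes tested the median shifted from -0.02 under TMM to -0.12 under upper-quartile scaling and -0.18 under library size alone, with 1050 genes called higher and 1589 lower under the former and 986 and 2054 under the latter. Among the 10 genes the lowest count was that of Nt5e, at 31 in 1 library, and among the pathway genes called with the group alone Slc28a2 had 9, 6 and 17 counts and Acpp 14, 18 and 27 counts in the control replicates.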
